A study of Mus musculus with 7 samples.

Results

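Chemokines are small secreted proteins that guide migrating cells along a gradient by binding receptors coupled to G proteins. Inflammatory chemokines are switched on after tissue injury and call in neutrophils, then monocytes, from the blood, whereas homeostatic chemokines hold cells in niches or direct traffic through lymphoid tissue. In muscle repair, monocytes recruited through the receptor CCR2 become the macrophages that clear debris and support the satellite cells, the stem cells of muscle. The genes described here are all those in the deposited expression table whose symbol begins with Ccl, Ccr, Cxcl or Cxcr followed by a digit, which are 48 of 23930 genes. They comprise 31 ligands (18 of the CC and 13 of the CXC family) and 17 receptors (11 CC and 6 CXC).

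Expression was measured in sorted Pax7-GFP+ cells of hind leg muscles from mice kept in normocapnia (room air, 3 libraries, NC1 to NC3) or hypercapnia (air with 10% CO2, 4 libraries, HC1 to HC4). All mice were inducible Pax7-GFP reporters on a C57BL/6 background, received tamoxifen at 12 weeks of age, spent 4 weeks in their condition and were collected at 16 weeks. In this line the recombinase is driven by the Pax7 gene, so that GFP marks cells that expressed Pax7 when tamoxifen was given, and their progeny. According to the methods the cells were taken 3 days after an injection of cardiotoxin, which kills myofibers, but the labels mention no injury and the deposited table carries a title with 40 hours. This difference between the sources was not resolved. No source says that the libraries come from separate animals, so the p-values measure only the spread between these samples.

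Values are RPM, reads scaled to the same total in each library, from a panel that amplifies a single short stretch of each gene. They therefore compare a gene between libraries, not genes with each other. The libraries held 14527445 to 23388710 reads, and a floor of 3 reads corresponded to between 0.128 and 0.207 RPM. Macrophage markers were abundant in all 7 libraries (summed level over 11 markers from 11450 to 33390 RPM in normocapnia and from 18735 to 23671 RPM in hypercapnia), of which Adgre1 alone was called higher in hypercapnia. Pax7, the defining gene of the sorted cells, ran from 4.34 RPM in NC3 to 268 RPM in NC1, so macrophage markers stood beside the gene that defined the sort, and each value describes everything the sort collected. In such samples, fewer cells of a type and less RNA per cell cannot be told apart. Xist, which is expressed in female cells, was at 445 to 701 RPM in NC1, NC2, HC1 and HC2 and at no more than 0.125 RPM in NC3, HC3 and HC4, in which the Y-linked gene Ddx3y was at 103 to 206 RPM. The labels give no sex, and the methods state that both sexes were used.

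Of the 48 genes, 24 had a mean of at least 10 RPM over the 7 libraries, 33 a mean of at least 1 RPM and 15 a mean below that. The floor of 3 reads was exceeded in all 7 libraries by 29 members and in none by 6, of which 3 (Ccr10, Ccl26 and Cxcl15) had no read at all. Changes were called by limma on log2(RPM + 1) at an unadjusted p under 0.05 with a fold change above 1.5, hypercapnia over normocapnia. By this rule 4 members changed, of which 2 were lower in hypercapnia (Cxcl13 and Ccl17) and 2 higher (Cxcl10 among them). That is 8.33% of the members, against 2.57% of all genes called either way, 1.43% called higher and 1.14% called lower. After adjustment over all genes no member and no gene passed in limma or in edgeR, and 1 member and 29 genes passed in DESeq2. The lowest adjusted p of a member in limma was 0.836, whereas 5 members and 1114 genes had an unadjusted p under 0.05. The values of the groups did not overlap for 5 members, or 10.4%, against 4.83% of all genes. Among members with a mean of at least 1 RPM the median log2 fold change was 0.091, beside 0.16 over all genes at that level. Its sign was not stable, since scaling by median of ratios gave -0.053 for the members (0.045 for all genes) and leaving out HC3 gave -0.0033. For a single gene, an exact permutation test over the 35 ways to divide the libraries (two-sided, on the difference of mean log2(RPM + 1)) can give no p below 0.0286.

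**Figure D1:**
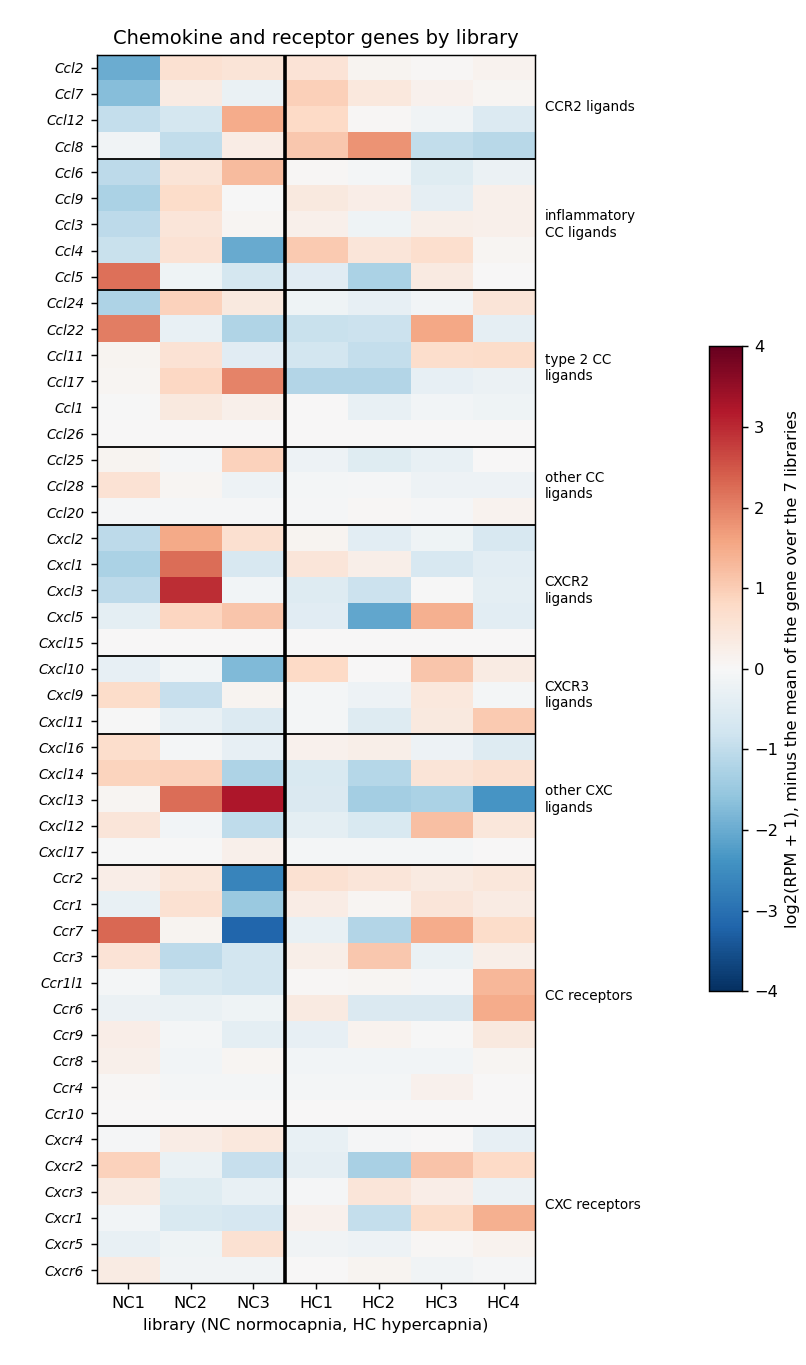
Levels of 47 of the 48 chemokine and receptor genes in each library, as log2(RPM + 1) minus the mean of the gene over the 7 libraries (colour scale limited to 4 either way), in rows by role and then by mean level. Cxcl13 and Ccl17 are red in NC2 and NC3 and nearly uncoloured in NC1, with hypercapnia pale to blue, whereas Ccl2 is lowest in NC1 (451 RPM) and Cxcl1 highest in NC2 (2091 RPM).

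Among the members the largest difference was that of Cxcl13, a chemokine best known for drawing B cells into lymphoid follicles. It measured 5.58, 28.0 and 57.8 RPM across NC1 to NC3 against 3.17, 1.41, 1.56 and 0.203 RPM across HC1 to HC4. Every normocapnia library lay above every hypercapnia library, but NC1 lay far closer to HC1 than to NC3. These values rest on 125, 656 and 839 reads across NC1 to NC3 against 74, 28, 25 and 3 reads across HC1 to HC4, so that HC4 is at the floor. The means were 30.5 ± 26.2 RPM in normocapnia (SD, n = 3) and 1.58 ± 1.22 RPM in hypercapnia (SD, n = 4), a 19.2-fold lower level in hypercapnia, and on the log2(RPM + 1) scale, which understates changes of low genes, Cxcl13 fell by 3.25 with an SE of 0.85 (limma adjusted p = 0.836, exact permutation p = 0.0286). DESeq2 on the whole reads gave a log2 fold change of -4.63 with an adjusted p of 0.00234, the single member past adjustment in any fit of the group difference (29 genes passed in the table). In edgeR without a filter the value was -4.50 with an adjusted p of 0.807. Without NC3, the library with the highest level, the fall was 2.55 on the log2 scale, still called, and the ratio of means was 10.6. In the 4 Xist-positive libraries alone it missed the threshold (log2 fold change -2.13, limma adjusted p = 0.768). CXCR5, its receptor, is a marker of follicular B cells and helper T cells, and Cxcr5 was low throughout at 0.0890, 0.171 and 1.03 RPM across NC1 to NC3 against 0.214, 0.151, 0.375 and 0.474 RPM across HC1 to HC4 (at most 15 reads). B cell markers summed from 7.78 to 16.2 RPM in normocapnia and from 11.0 to 13.1 RPM in hypercapnia, with no marker called.

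Ccl17, a ligand of CCR4 made by dendritic cells and by macrophages in type 2 responses, was the other member that fell. Its level was 1.96, 4.02 and 10.3 RPM across NC1 to NC3 against 0.257, 0.251, 1.25 and 1.42 RPM across HC1 to HC4. The groups did not overlap, with HC1 and HC2 close to the floor and NC3 highest. Behind these values stand 44, 94 and 149 reads across NC1 to NC3 against 6, 5, 20 and 21 reads across HC1 to HC4. The mean was 6.81-fold lower in hypercapnia (log2 fold change -1.69, SE 0.53, limma adjusted p = 0.915, exact permutation p = 0.0286), with DESeq2 at -3.24 and an adjusted p of 0.0844. The call was lost on leaving out NC2, HC1 or HC2, with the fall then between 1.54 and 1.76 on the log2 scale. Without NC3 it was still called, but the fall was 1.17 on the log2 scale and the ratio of means 3.76. Ccr4 was never above the floor (0 to 0.187 RPM). Ccl22, the other ligand of CCR4, measured 34.1, 5.86 and 2.62 RPM across NC1 to NC3 against 3.55, 3.62, 23.6 and 5.62 RPM across HC1 to HC4 and overlapped between the groups (log2 fold change -0.32, SE 1.01, limma adjusted p = 1). Its 2 highest libraries, NC1 and HC3, were also those with the highest summed dendritic cell markers (85.9 and 61.2 RPM). Summed satellite cell markers were highest there too (1266 and 604 RPM). The dendritic cell markers ran down to 11.7 RPM in HC1, while the dendritic gene Zbtb46 was at 1.16 to 13.2 RPM and none of the 6 markers was called. What part these cells have in the values of Ccl22 or Ccl17 was not tested.

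The promoters of both genes that fell are shown because they carry the 2 lowered transcripts, as the 120 bases up to the annotated start in RefSeq (GRCm38.p6), 5′ to 3′ on the strand of the gene. Cxcl13 lies at chr5:95956819-95956938, plus strand, and Ccl17 at chr8:94810333-94810452, plus strand. Neither stretch, nor the 250 bases before the start, held a match to the NF-kB motif GGGANNTTCC or to the interferon-stimulated response element GAAANNGAAA, searched on both strands, and so they are printed without capitals.
Cxcl13: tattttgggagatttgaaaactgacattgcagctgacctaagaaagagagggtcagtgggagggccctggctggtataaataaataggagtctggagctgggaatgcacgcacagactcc
Ccl17: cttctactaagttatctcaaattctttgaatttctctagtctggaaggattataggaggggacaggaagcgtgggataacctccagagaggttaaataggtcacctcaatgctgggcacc

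Cxcl10 rose. This gene, an interferon-inducible ligand that draws activated T and NK cells through CXCR3, measured 68.9, 79.4 and 24.5 RPM across NC1 to NC3 against 151, 86.7, 187 and 109 RPM across HC1 to HC4. All 4 hypercapnia libraries lay above all 3 normocapnia libraries, though HC2 exceeded NC2 by little and NC3 was the lowest by far. The means were 57.6 ± 29.1 RPM in normocapnia (SD, n = 3) and 133 ± 44.5 RPM in hypercapnia (SD, n = 4), a 2.31-fold difference (log2 fold change 1.30, SE 0.50, limma adjusted p = 0.915, exact permutation p = 0.0286). DESeq2 gave 1.15 (DESeq2 adjusted p = 0.329). Without NC3 the log2 fold change was 0.78 and missed the threshold, as it did without NC1, HC1, HC3 or HC4, at 1.12 to 1.51. With a term for Xist-positive libraries it was 1.37 and in those libraries alone 0.62, neither of them called. Cxcl9, the sister ligand induced by interferon gamma, was at 12.5, 3.33 and 7.71 RPM across NC1 to NC3 against 6.76, 6.03, 9.93 and 6.70 RPM across HC1 to HC4 and overlapped between the groups (log2 fold change 0.043, SE 0.41, limma adjusted p = 1). Cxcl11, the third ligand of CXCR3, stayed at or below 2.23 RPM. The receptor Cxcr3 measured 1.28 to 3.52 RPM (log2 fold change 0.26, SE 0.27, limma adjusted p = 0.915), and summed T and NK cell markers ran from 0.138 to 5.44 RPM in normocapnia and from 0.351 to 2.64 RPM in hypercapnia. Those markers were highest in NC1, where Cxcr3 was at 3.08 RPM, whereas Cxcr3 was highest in HC2 at 3.52 RPM, where they summed to 0.351 RPM.

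Adgre1, the macrophage surface gene that encodes F4/80, was also higher in hypercapnia (109, 149 and 70.5 RPM across NC1 to NC3 against 392, 429, 151 and 184 RPM across HC1 to HC4, log2 fold change 1.31, SE 0.49, limma adjusted p = 0.915, exact permutation p = 0.0571), as was the monocyte gene Plac8 (30.6, 71.7 and 8.88 RPM across NC1 to NC3 against 161, 226, 177 and 92.4 RPM across HC1 to HC4, log2 fold change 2.47, SE 0.73, limma adjusted p = 0.909, exact permutation p = 0.0286). Their part in the Cxcl10 values was not tested. Adgre1 was the only one of the 11 macrophage markers called, and the others had log2 fold changes from -0.14 (Csf1r) to 0.75 (C1qc). In NC3, where Cxcl10 was lowest, the 11 macrophage markers summed to 33390 RPM, the highest sum, of which Lyz2 made up 29108 RPM. The other 10 markers summed to 4282 RPM there and to between 3097 RPM (NC1) and 7416 RPM (NC2) in the other libraries, and Adgre1, C1qb, C1qc and Cd14 were lowest in NC3.

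**Figure D2:**
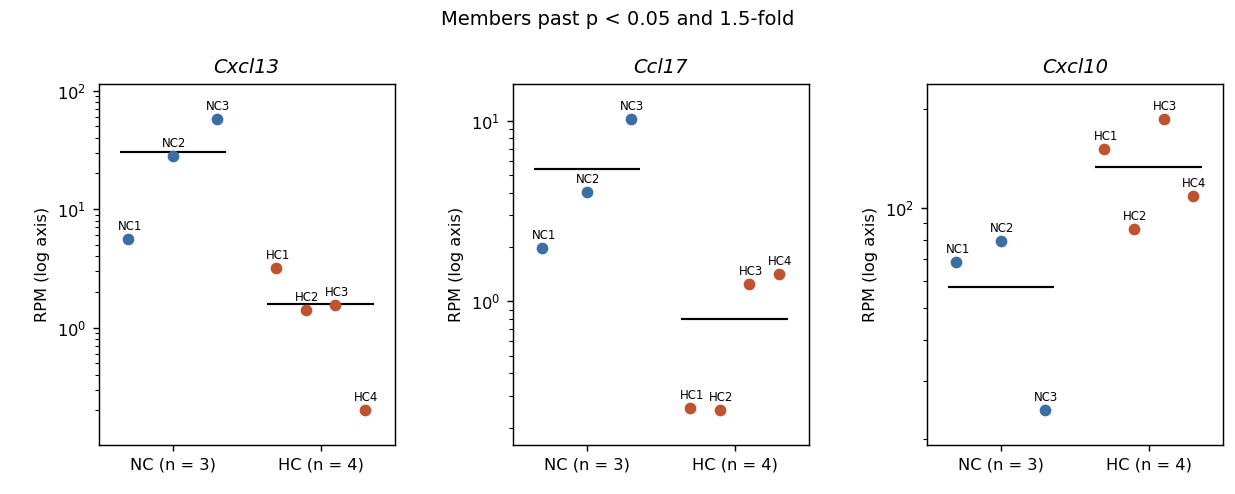
RPM (log axis) of Cxcl13, Ccl17 and Cxcl10, which limma called, in each library, with NC in blue (n = 3), HC in orange (n = 4) and a line at each group's arithmetic mean. The groups do not overlap for any of these, and the gap is smallest for Cxcl10 (NC2 at 79.4 RPM, HC2 at 86.7 RPM).

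The inflammatory chemokines Ccl3, Ccl4, Ccl5, Ccl6 and Ccl9 did not pass the test over all 7 libraries and all genes. Ccl4 came nearest, at 12.2, 35.6 and 5.03 RPM across NC1 to NC3 against 49.6, 33.2, 38.3 and 25.1 RPM across HC1 to HC4 (log2 fold change 1.35, SE 0.64, limma adjusted p = 0.915), with NC2 inside the hypercapnia range. It was called without NC2 (2.03), with the Xist term (1.52) and when the fit kept the genes averaging at least 1 RPM, and was at 0.73 without NC3. Ccl3 was at 368 to 1066 RPM in normocapnia and 674 to 892 RPM in hypercapnia (log2 fold change 0.27, SE 0.38, limma adjusted p = 0.92). Ccl5, made mainly by T cells but also by macrophages, was at 39.4 RPM in NC1 and between 2.71 and 10.2 RPM in the other 6 libraries (log2 fold change -0.78, SE 0.81, limma adjusted p = 0.915). Ccl6 and Ccl9, myeloid ligands of CCR1 in the mouse, were measured with more reads than any other member. Ccl6 measured 1975, 5806 and 9700 RPM across NC1 to NC3 against 4183, 3874, 2888 and 3442 RPM across HC1 to HC4 (log2 fold change -0.43, SE 0.55, limma adjusted p = 0.915). Ccl9 measured 1153, 4649 and 2747 RPM across NC1 to NC3 against 3653, 3360, 2168 and 3182 RPM across HC1 to HC4 (log2 fold change 0.31, SE 0.50, limma adjusted p = 0.944). In both, the normocapnia libraries spanned the whole hypercapnia range. Ccr1 itself was at 226, 429 and 98.1 RPM across NC1 to NC3 against 339, 292, 389 and 353 RPM across HC1 to HC4 (log2 fold change 0.68, SE 0.50, limma adjusted p = 0.915), with NC3 lowest and NC2 highest. Ccr1l1, a gene much like Ccr1 that lies beside it, had groups that did not overlap at 0.714, 0.171 and 0.0690 RPM across NC1 to NC3 against 0.856, 0.904, 0.750 and 3.45 RPM across HC1 to HC4, but missed the threshold (log2 fold change 0.83, SE 0.40, limma adjusted p = 0.915). It is mentioned after its values had been seen, its counts are small (51 reads at most), and whether the panel separates it from Ccr1 is not given.

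The CCR2 axis recruits monocytes to injured muscle. Ccl2, its leading ligand, measured 451, 2701 and 2559 RPM across NC1 to NC3 against 2599, 1906, 1848 and 1958 RPM across HC1 to HC4. NC1 lay apart, whereas NC2 and NC3 lay within or just above the hypercapnia range, and no group difference was called (log2 fold change 0.49, SE 0.69, limma adjusted p = 0.921). Ccl7 measured 292, 1197 and 783 RPM across NC1 to NC3 against 1824, 1262, 1067 and 1003 RPM across HC1 to HC4 (log2 fold change 0.95, SE 0.53, limma adjusted p = 0.915), again with NC1 lowest. Ccl12, at 99.1, 117 and 536 RPM across NC1 to NC3 against 330.0, 197, 172 and 131 RPM across HC1 to HC4, was highest in NC3 (log2 fold change 0.091, SE 0.69, limma adjusted p = 1). Ccl8, which in the mouse acts largely through CCR8, measured 66.5, 36.0 and 89.1 RPM across NC1 to NC3 against 155, 257, 36.5 and 33.2 RPM across HC1 to HC4 (log2 fold change 0.48, SE 0.88, limma adjusted p = 0.956) and separated HC1 and HC2 from HC3 and HC4. Ccl2, Ccl7, Ccl11, Ccl12, Ccl8 and Ccl1 lie next to each other on chromosome 11 in RefSeq, yet NC1 was the lowest library for Ccl2, Ccl7 and Ccl12 and not for Ccl8 or Ccl11. The receptor Ccr2 was at 491, 558 and 63.7 RPM across NC1 to NC3 against 615, 567, 521 and 559 RPM across HC1 to HC4. Only NC3 was low, with the other libraries within 491 to 615 RPM, so the group difference (log2 fold change 1.12, SE 0.80, limma adjusted p = 0.915) came with an SD of 268 RPM in normocapnia against 38.6 RPM in hypercapnia. Plac8 was also lowest in NC3 (8.88 RPM), whereas the monocyte and macrophage gene F13a1 was not (1740 RPM, with NC1 lowest at 600.4 RPM).

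Cxcl1, Cxcl2 and Cxcl3, ligands of CXCR2, the receptor that brings neutrophils into tissue, peaked in NC2. Cxcl1 measured 187, 2091 and 286 RPM across NC1 to NC3 against 629.9, 531, 288 and 332 RPM across HC1 to HC4 (log2 fold change -0.19, SE 0.91, limma adjusted p = 1). Cxcl2 measured 702, 4140 and 2263 RPM across NC1 to NC3 against 1578, 1095, 1301 and 925 RPM across HC1 to HC4 (log2 fold change -0.64, SE 0.63, limma adjusted p = 0.915). Cxcl3 measured 25.8, 433 and 50.5 RPM across NC1 to NC3 against 38.2, 29.8, 54.2 and 41.6 RPM across HC1 to HC4 (log2 fold change -1.04, SE 0.99, limma adjusted p = 0.915). In all of these NC2 was the highest and NC1 the lowest library, and no group difference was called by limma. The count tests did call Cxcl3, with a log2 fold change of -2.20 in edgeR (adjusted p = 0.807) and -2.20 in DESeq2 (adjusted p = 0.34). In limma the difference rests on NC2, since without that library limma gave 0.14, and Cxcl1 0.87, both higher in hypercapnia and neither called. Cxcl2 was at -0.070 without NC2, and without NC1 it was called, at -1.35. At the same thresholds edgeR without a filter called 4 members (Cxcl13, Ccl17, Cxcl10 and Cxcl3) beside 4.38% of all genes, and DESeq2 called 5 (these and Ccr1l1) beside 5.45%. Cxcl5 followed another order, with 5.93, 15.7 and 18.5 RPM across NC1 to NC3 against 5.61, 1.16, 23.2 and 5.75 RPM across HC1 to HC4 (log2 fold change -0.92, SE 0.88, limma adjusted p = 0.915). The platelet chemokines Ppbp and Pf4, which lie between Cxcl5 and Cxcl3 on chromosome 5, did not share the NC2 peak either. Ppbp was at 35.0, 217 and 671 RPM across NC1 to NC3 against 35.3, 58.9, 74.1 and 53.4 RPM across HC1 to HC4 and Pf4 at 342, 2576 and 2369 RPM across NC1 to NC3 against 2701, 2557, 1040 and 985 RPM across HC1 to HC4. Cd14, a monocyte and macrophage receptor for bacterial lipopolysaccharide, was highest in NC2 too (3031 RPM, 431 to 1138 RPM elsewhere).

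**Figure D3:**
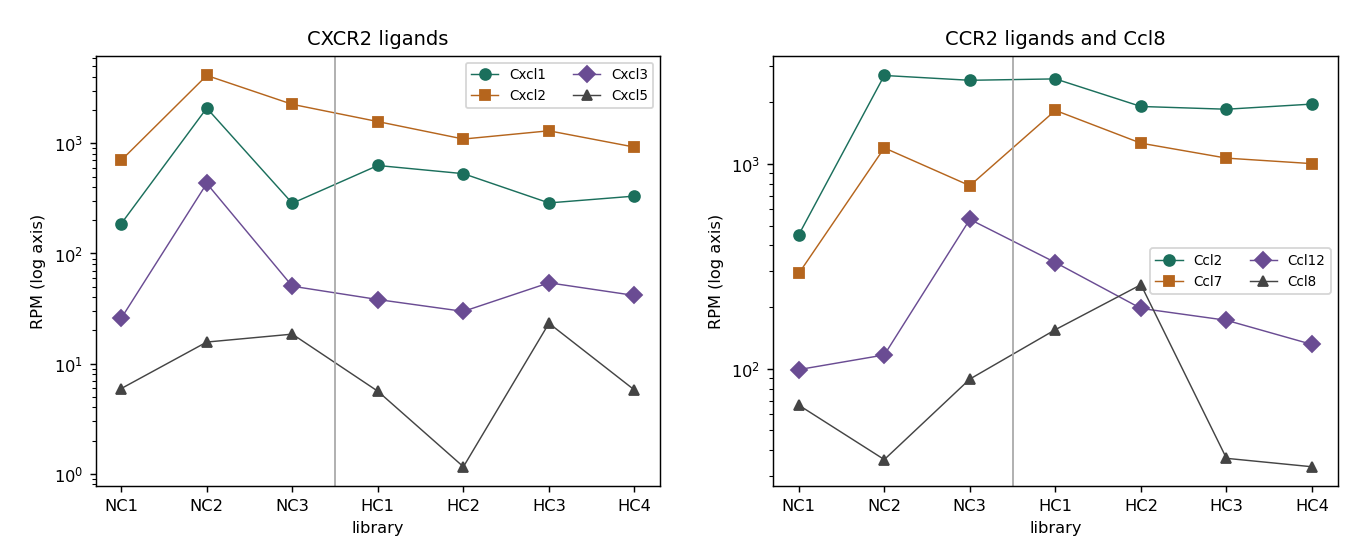
RPM (log axis) by library of the CXCR2 ligands Cxcl1, Cxcl2, Cxcl3 and Cxcl5 (left) and of Ccl2, Ccl7, Ccl12 and Ccl8 (right), with the lines joining values of the same gene and the vertical line parting NC from HC. Cxcl1, Cxcl2 and Cxcl3 peak together in NC2 (2091, 4140 and 433 RPM), and Ccl2 and Ccl7 are lowest in NC1 (451 and 292 RPM).

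The promoters of Cxcl1, Cxcl2, Cxcl3 and Cxcl10 are shown because they carry the same kind of sequence match, and were chosen for it. NF-kB is the transcription factor that switches on many inflammatory genes. Its motif GGGANNTTCC was found, on either strand of the 250 bases before the RefSeq start, in 6 of 35 windows of 33 members (17.1%), namely those of Ccl1, Ccr3, Cxcl1, Cxcl10, Cxcl2 and Cxcl3, against 1.21% of 32851 windows of all genes. Cxcl1, Cxcl2 and Cxcl3 lie near each other on chromosome 5, so their windows may not be independent and the share of members may be inflated. The match began 71 bases before the start in Cxcl1 (chr5:90891125-90891244, plus strand), 97 in Cxcl2 (chr5:90903779-90903898, plus strand) and 73 in Cxcl3 (chr5:90785981-90786100, plus strand), with the same letters in each. As these read as a motif on both strands, a second match starts 1 base further on, and the capitals cover both.
Cxcl1: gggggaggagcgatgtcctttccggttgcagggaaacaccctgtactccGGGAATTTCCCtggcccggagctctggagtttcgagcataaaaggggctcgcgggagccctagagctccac
Cxcl2: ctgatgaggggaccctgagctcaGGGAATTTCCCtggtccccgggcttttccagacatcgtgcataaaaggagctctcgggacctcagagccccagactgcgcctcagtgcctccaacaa
Cxcl3: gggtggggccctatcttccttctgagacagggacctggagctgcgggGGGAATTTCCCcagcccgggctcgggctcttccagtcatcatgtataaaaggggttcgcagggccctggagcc
The 250 bases before the start of Cxcl10 (chr5:92348890-92349139, minus strand) held an interferon-stimulated response element GAAANNGAAA beginning 213 bases before the start and an NF-kB match 159 bases before it, both in capitals. The element was found in 2 of the 35 member windows (5.71%, Cxcl10 and Cxcl14) and in 2.98% of all windows.
Cxcl10: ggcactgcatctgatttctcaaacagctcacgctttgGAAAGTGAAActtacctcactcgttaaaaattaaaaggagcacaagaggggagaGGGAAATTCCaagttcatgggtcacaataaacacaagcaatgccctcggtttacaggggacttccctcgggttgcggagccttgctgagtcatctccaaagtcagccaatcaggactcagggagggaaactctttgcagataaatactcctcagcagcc
A match says only that these letters are present. Of the 9 members averaging at least 10 RPM that were highest in NC2, the windows of Ccl3, Ccl9, Ccr1 and Cxcl14 held no NF-kB match, and Ccl2 and Ccl24 had no window. No window was found for 15 members, among them Ccl2, Ccl4, Ccl5, Ccl7, Ccl11, Ccl24, Ccl26, Ccr7, Ccr10, Cxcl5, Cxcl11, Cxcl16, Cxcl17 and Cxcr5.

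The receptors of these ligands on neutrophils were sparse. Cxcr2 measured 4.86, 1.54 and 0.620 RPM across NC1 to NC3 against 1.37, 0.251, 5.68 and 4.27 RPM across HC1 to HC4 (log2 fold change 0.15, SE 0.76, limma adjusted p = 1). Cxcr1 measured 0.981, 0.385 and 0.344 RPM across NC1 to NC3 against 1.41, 0.1, 2.5 and 4.67 RPM across HC1 to HC4 (log2 fold change 0.80, SE 0.58, limma adjusted p = 0.915). Cxcr2 was high in NC1, HC3 and HC4, the libraries in which summed neutrophil markers were highest (222, 323 and 227 RPM, 81.5 to 147 RPM elsewhere). Summed satellite cell (1266, 604 and 437 RPM), endothelial (208, 481 and 374 RPM) and dendritic cell markers (85.9, 61.2 and 54.4 RPM) were highest in these libraries too. What part any of these cells have in the Cxcr2 values was not tested. Ly6g, a defining neutrophil gene, had at most 2 reads in any library, and of the 6 neutrophil markers only Mmp8 was called, as higher (7.54, 17.0 and 16.7 RPM across NC1 to NC3 against 34.6, 27.0, 35.0 and 32.6 RPM across HC1 to HC4, log2 fold change 1.25, SE 0.30, limma adjusted p = 0.809, exact permutation p = 0.0286).

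Among the homeostatic genes, Cxcr4, the receptor that keeps stem and progenitor cells in their niche, varied least among the members above the floor in every library, the highest being 1.70 times the lowest. It measured 330.2, 421 and 465 RPM across NC1 to NC3 against 277, 334, 350.4 and 273 RPM across HC1 to HC4, with NC1 inside the hypercapnia range. The limma p lay just above the threshold and the size below 1.5-fold (log2 fold change -0.39, SE 0.16, limma adjusted p = 0.915). Its ligand Cxcl12 measured 12.7, 7.95 and 3.85 RPM across NC1 to NC3 against 6.42, 5.38, 21.3 and 12.2 RPM across HC1 to HC4 (log2 fold change 0.37, SE 0.58, limma adjusted p = 0.938). Cxcl14, an epithelial and stromal chemokine, measured 54.4, 56.1 and 11.6 RPM across NC1 to NC3 against 18.6, 12.6, 41.6 and 45.9 RPM across HC1 to HC4 (log2 fold change -0.34, SE 0.75, limma adjusted p = 0.984), so that NC3, HC1 and HC2 were low and the other 4 libraries high. Cxcl16, a membrane-bound ligand of CXCR6 that also takes up oxidized lipid, ran from 85.2 to 197 RPM (log2 fold change -0.17, SE 0.31, limma adjusted p = 0.954). Ccr7, which leads dendritic cells to lymph nodes, ranged widely, at 49.9, 10.0 and 0.138 RPM across NC1 to NC3 against 7.45, 3.57, 28.1 and 16.0 RPM across HC1 to HC4 (log2 fold change 0.45, SE 1.43, limma adjusted p = 1). It was highest in NC1, followed by HC3 and HC4, the order of the summed dendritic cell markers (85.9, 61.2 and 54.4 RPM), and NC3 held 2 reads of it. Summed satellite cell markers had the same order (1266, 604 and 437 RPM), and endothelial markers were highest in the same libraries (208, 481 and 374 RPM). The part of any of these cells in these values was not tested.

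Of the ligands and receptor of eosinophils, Ccl24, which alternatively activated macrophages release, measured 47.4, 217 and 149 RPM across NC1 to NC3 against 102, 89.5, 106 and 165 RPM across HC1 to HC4 (log2 fold change -0.039, SE 0.56, limma adjusted p = 1). Its receptor Ccr3 was low, at 0.0860 to 3.72 RPM (log2 fold change 0.74, SE 0.50, limma adjusted p = 0.915), and the eosinophil granule gene Epx had a single read in all libraries together. Of the remaining members, Ccl11, an eotaxin, was at 1.81 to 8.12 RPM and Ccl25 at 1.86 to 6.47 RPM. Ccl1 averaged 0.478 RPM in normocapnia and 0.168 RPM in hypercapnia, at no more than 16 reads in a library. Its unadjusted limma p was under 0.05, and its change was under 1.5-fold on the log2(RPM + 1) scale but was called with a pseudocount of 0.1 RPM. For the 15 members with a mean below 1 RPM, the highest value in any library was 3.45 RPM (Ccr1l1 in HC4).

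**Figure D4:**
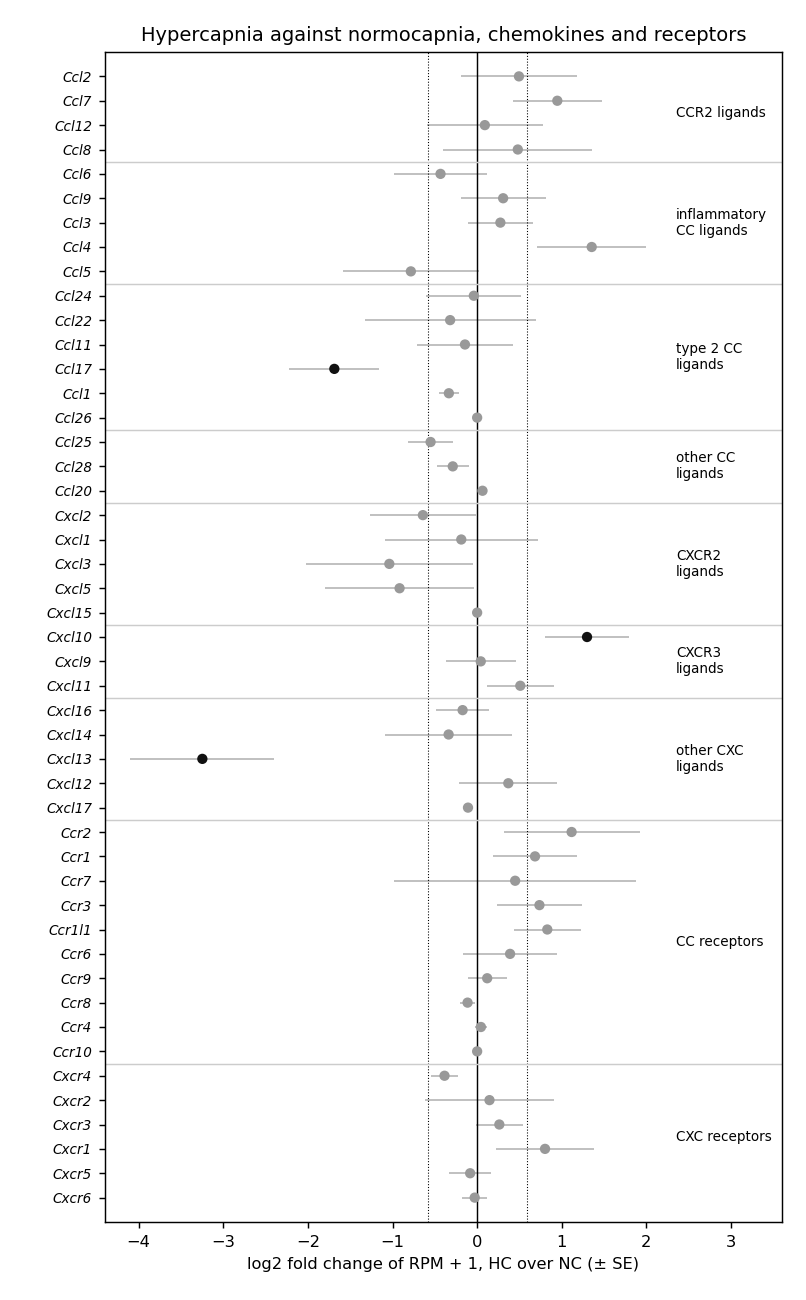
Log2 fold change of RPM + 1, hypercapnia over normocapnia, with its SE from limma for 47 of the 48 members by role, called members in black and dotted lines at 1.5-fold either way. Of those shown, 23 lie above 0 and 21 below, and 44 are not called.

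Summed over the members, ligands took 0.582% of reads in NC1, 2.28% in NC2, 2.02% in NC3 and between 1.13% and 1.64% in the hypercapnia libraries. The receptors summed to 1169, 1530 and 725 RPM in NC1 to NC3 and to 1337 to 1416 RPM in hypercapnia. The 3 normocapnia libraries thus differed from each other more than the 4 hypercapnia libraries did. Of the 24 members averaging at least 10 RPM, 22 had the larger SD of log2(RPM + 1) in normocapnia (91.7%), but so did 88.6% of all 8229 genes at that level, so the wider spread is not particular to chemokines. Of these 24, NC1 was the lowest library for 11 and NC3 for 7, and NC2 was the highest for 9. Members not called over the 7 libraries passed the threshold when a library was left out. Without NC1 these were Cxcl2, Ccl6 (log2 fold change -1.07) and Ccr3 (1.22). Without NC2 they were Ccl4, Ccl7 (1.39) and Ccr1 (1.19), and without HC2 Cxcr1 (1.23). Their limma adjusted p-values in these fits ran from 0.275 to 0.901. Of all genes, 8.32% were called without NC1, 5.04% without NC2 and 1.57% without HC2, against 2.57% over all 7 libraries.

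Because NC3, HC3 and HC4 carried Y-linked reads and the other 4 libraries Xist, the groups were also compared within each set. This comparison was chosen after the values had been seen, and the Y-positive set holds NC3 as its only normocapnia library, so sex and that library cannot be told apart. The groups lay on opposite sides in the 2 sets for 9 members, all with a mean of at least 1 RPM. That is 27.3% of the 33 members at that level, near the 22.1% of all genes at that level (13.9% of all genes in the table). Ccl8 and Ccl12 were higher in hypercapnia among Xist-positive and lower among Y-positive libraries. Cxcl14, Ccl11, Cxcl12, Ccr7, Ccl5, Ccl22 and Cxcr2 did the reverse. The difference between the 2 contrasts passed adjustment over all genes for 2 members, while 3.2% of all genes (766) passed. These were Cxcl14 (difference 3.62 on the log2 scale, SE 0.33, limma adjusted p = 0.0379) and Ccr2 (difference 2.89, SE 0.15, limma adjusted p = 0.0296). As NC3 is alone in its arm, the spread behind these values comes from the other libraries and NC3 is assumed to vary like them. Ccr2 was low in NC3 alone. With a term for the Xist-positive libraries in the fit over all 7, 4 members were called beside 5.06% of all genes, of which Cxcl13, Ccl17 and Ccl25 were lower in hypercapnia and Ccl4 higher. In the Xist-positive libraries alone, 4 members were called beside 4.24% of all genes, Ccl8 and 3 lower ones (Ccl11, Ccl17 and Cxcl14), so that Ccl17 was the one member called there and over all 7 libraries.

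**Figure D5:**
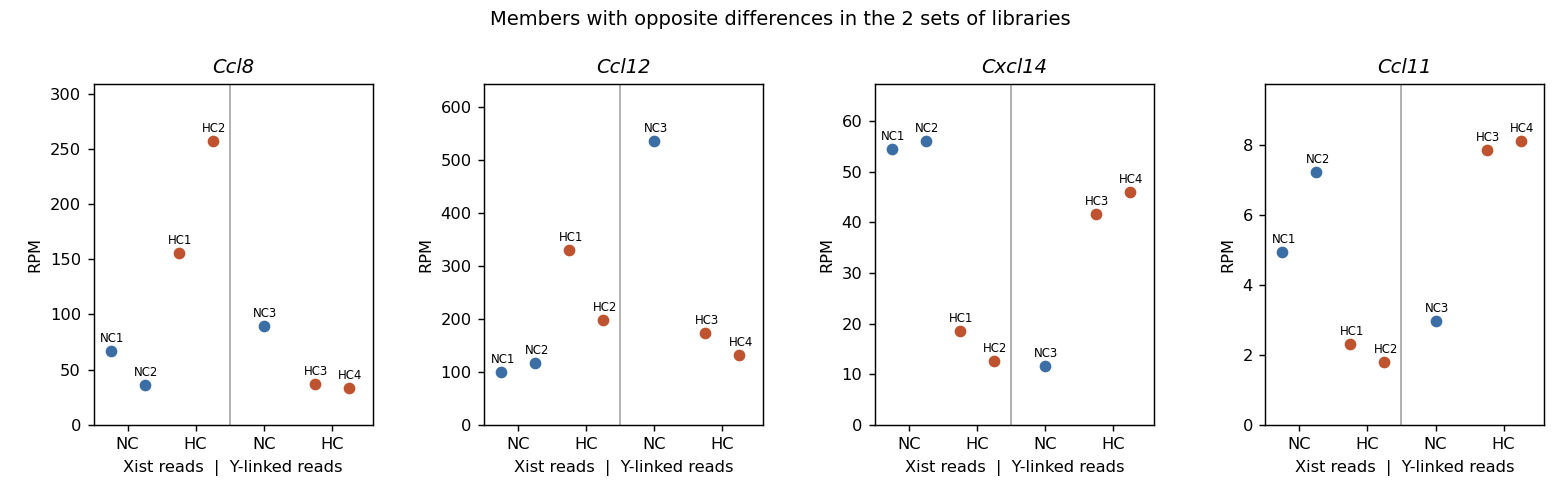
RPM of Ccl8, Ccl12, Cxcl14 and Ccl11 in each library, with the 4 Xist-positive libraries left of the line and the 3 with Y-linked reads right of it, NC in blue and HC in orange. The sign of the difference turns between the sets, and the right-hand normocapnia value is NC3 alone.

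Other genes of the pathway were taken from a list of 49 written from general knowledge, which holds atypical receptors, other chemokines and the signalling proteins below the receptors, and 44 of them were in the table. Of these, 1 was called (2.27%, beside the 2.57% of all genes), and 4 had groups that did not overlap (9.09%, beside 4.83% of all genes). Plcb2, a phospholipase C activated by G protein subunits under chemokine receptors, rose, at 29.8, 34.4 and 24.4 RPM across NC1 to NC3 against 60.6, 67.5, 45.9 and 46.2 RPM across HC1 to HC4 (log2 fold change 0.87, SE 0.19, limma adjusted p = 0.729, exact permutation p = 0.0286). Its groups lay well apart. Gnai3, an inhibitory G protein subunit that couples these receptors, measured 139.9, 148 and 209 RPM across NC1 to NC3 against 138, 120.1, 122 and 119 RPM across HC1 to HC4 (log2 fold change -0.39, SE 0.15, limma adjusted p = 0.915). Vav1, a Rac activator of blood cells, measured 94.7, 173 and 128 RPM across NC1 to NC3 against 191, 189, 175 and 182 RPM across HC1 to HC4 (log2 fold change 0.52, SE 0.20, limma adjusted p = 0.915). Both differed by less than 1.5-fold. Of the other named genes of the list, Ccrl2, an atypical receptor that binds chemerin, was lowest in NC3 at 98.0 RPM and at 283 to 565 RPM elsewhere (log2 fold change 0.65, SE 0.59, limma adjusted p = 0.915), as was Gnai2, the main inhibitory subunit in leukocytes (707 RPM, 1843 to 4077 RPM elsewhere, log2 fold change 0.85, SE 0.56, limma adjusted p = 0.915). The beta-arrestin gene Arrb2 (log2 fold change 0.30, SE 0.093, limma adjusted p = 0.915) differed by less than 1.5-fold. A further 13 genes averaging at least 100 RPM, Ppbp and Pf4 among them, had limma adjusted p-values from 0.915 to 1.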

How the data were processed

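Sorted Pax7-GFP+ cells of 3 normocapnia and 4 hypercapnia libraries were measured with a mouse AmpliSeq transcriptome panel on an Ion S5 sequencer. The authors deposited a table of RPM, reads scaled to the same total in each library, and per the labels used the Transcriptome Analysis Console, whose p of 0.05 and fold of 1.5 are used here. Neither aligner nor genome build is given in the sources used here. All values (100%) were whole multiples of what 1 read is worth, within a tolerance of 0.05 read, which gave the library totals.

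Groups follow the titles and treatment labels. limma 3.58.1 (R 4.3.3) was fitted to log2(RPM + 1) for the 23930 genes, unfiltered, with Benjamini-Hochberg adjustment over them. Alternatives were a pseudocount of 0.1 or 5 RPM, keeping genes that average 1 RPM or more, scaling by median of ratios, edgeR 4.0.16 (quasi-likelihood) and DESeq2 1.42.0 on the whole reads, leaving out each library and a replicate block. A term for Xist-positive libraries, those libraries alone and the interaction were added after seeing the data.

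The members and lists were chosen with earlier results of these data known. Named are called members, members with a mean of at least 10 RPM, receptors at 1 RPM or more, partners of called members, and pathway genes that were called or had a mean of at least 100 RPM. Genes outside this rule (Ccl1, Ccl11, Ccl25, Ccr1l1, Cxcl9, Cxcl11, Cxcl12 and the marker genes) were added after their values had been seen. Promoter sequences are from RefSeq (GRCm38.p6), in which 47 of 48 members were matched by symbol. Some genes are not reported here, so that a count can exceed the genes named with it.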

Additional observations from a re-analysis of the deposited data

Results flagged for a closer look

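In hypercapnia, sets of 4 values were screened by Dixon's ratio, the gap of an end value to its nearest neighbour divided by the range. In 4 of 51 sets a library exceeded the 95% critical value of this ratio, and chance gives about 1 in 20. They were Ccl2 in HC1 (2599 RPM, 1848 to 1958 RPM in the other 3), Ccl22 in HC3 (23.6 RPM, 3.55 to 5.62 RPM in the others), Ccl3 in HC2 (674 RPM, 867 to 892 RPM in the others) and Gnai3 in HC1 (138 RPM, 119 to 122 RPM in the others).

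For 9 members every library moved one way in the Xist-positive set and the other way in the Y-positive set, which is 27.3% of members with a mean of at least 1 RPM beside 22.1% of all genes at that level. The difference of the 2 contrasts (Y-positive minus Xist-positive, log2 scale, limma interaction) was 3.62 for Cxcl14 (adjusted p = 0.0379), 2.38 for Ccl11 (adjusted p = 0.0617), -3.06 for Ccl12 (adjusted p = 0.0875) and -3.34 for Ccl8 (adjusted p = 0.112). It was 2.51 for Cxcl12, 6.22 for Ccr7, 2.73 for Ccl5, 3.58 for Ccl22 and 3.04 for Cxcr2, with adjusted limma p-values from 0.137 to 0.437. NC3 is the only normocapnia library of the Y-positive set and has no spread of its own there, so a difference between the sexes and a difference of that library cannot be told apart.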

How the results depend on the processing

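Cxcl13 was called in 15 of 17 alternatives, Ccl17 in 14 and Cxcl10 in 9, and their directions held in all 17. The number of members called was 1 to 6 over the fits that left out a library, against 4 (2 without NC3, 1 without HC1, 2 without HC3 and 2 without HC4) and 1 with a replicate block (Ccl17). The share of all genes called over the same fits ran from 1.57% without HC2 to 8.32% without NC1, against 2.57%. Pathway genes called numbered 1 to 6 over these fits (4 without NC1, 6 without NC2, 2 without HC3), 2 in edgeR, 3 in edgeR without a filter, 3 in DESeq2, 2 with a replicate block, 4 with the Xist term and 2 in Xist-positive libraries alone, against 1. In the last 6 of these fits, in that order, 6.03%, 4.38%, 5.45%, 2.5%, 5.06% and 4.24% of all genes were called. The replicate numbers do not pair the samples (correlations of deviations -0.35, 0.50 and -0.044 for numbers 1 to 3), and with the block Cxcl13 was at -2.92 (limma adjusted p = 0.934).

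The median change (log2) over genes averaging 1 RPM or more was 0.16, and 0.045 when only the scaling was changed (median of ratios). It was -0.0090 in edgeR and -0.040 in DESeq2, which also change the model, and edgeR the genes kept. Directions of uncalled genes turned as follows. Ccl12 was at -0.053 with median-of-ratios scaling. With edgeR, edgeR without a filter and DESeq2, Ccl12 was at -0.62, -0.55 and -0.68, Ccl2 was at -0.14, -0.10 and -0.18, Ccl3 was at -0.057, -0.039 and -0.10, Ccl9 was at -0.063, -0.047 and -0.10 and Ccr7 was at -0.38, -0.43 and -0.41. With the replicate block Cxcr2 was at -0.094. In Xist-positive libraries alone Ccl6 was at 0.25, Ccr4 was at -0.062, Ccr7 was at -1.93, Cxcr1 was at -0.024, Cxcr2 was at -1.16 and Cxcr5 was at 0.066. Leaving out a library ranged Ccl12 from -0.35 to 0.86, Ccl2 from -0.35 to 0.94, Ccl22 from -1.02 to 0.62, Ccl24 from -0.67 to 0.41, Ccl3 from -0.17 to 0.60, Ccl5 from -1.35 to 0.089, Ccl6 from -1.07 to 0.073, Ccl8 from -0.055 to 0.92, Ccl9 from -0.24 to 0.77, Ccr4 from -0.0094 to 0.086, Ccr7 from -1.01 to 1.73, Cxcl1 from -0.87 to 0.87, Cxcl14 from -1.06 to 0.034, Cxcl16 from -0.38 to 0.12, Cxcl3 from -1.86 to 0.14, Cxcr2 from -0.27 to 0.66, Cxcr5 from -0.25 to 0.20. The causes were not tested. For the 6 members never above the floor of 3 reads, Ccr4 among them, no difference was detectable at this depth.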
